A study of Mus musculus with 17 samples.

Results

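The integrated stress response genes described here are 10 genes, chosen by name from the 48795 genes of a count table: the 4 kinases Eif2ak1, Eif2ak2, Eif2ak3 and Eif2ak4, the transcription factors Atf4, Atf5, Atf3 and Ddit3, and the 2 regulators Trib3 and Ppp1r15a. All 10 were found in the table. The rule of choice used names and no measured value, but earlier results of these data were known when it was made. RNA-seq was performed on kidney cortices from mice of 4 genotypes, with 5 WT samples, 5 ATF4 KO samples (GCERAd in the sample names), 3 TRACK samples and 4 samples labelled TRACK-ATF4 KO (GCERAdT in the sample names). TRACK stands for a transgenic mouse model of kidney cancer, which is known as a line with a constitutively active HIF1alpha in the proximal tubules. In GCERAd mice a fragment of the Ggt1 promoter drives a tamoxifen-inducible Cre (CreER) in proximal tubules, and both Atf4 alleles are floxed. These mice received tamoxifen on 2 consecutive days at 6 weeks of age, and kidneys were collected a month later after a fast of 16 h. The sources used here do not say whether the WT mice received tamoxifen. They also do not give the age or the tamoxifen treatment of the TRACK and TRACK-ATF4 KO mice. The comparisons ask how loss of Atf4 in the proximal tubule, the TRACK transgene, and both together altered kidney gene expression.

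In the integrated stress response, a kinase senses a stress and phosphorylates the translation factor eIF2alpha. General protein synthesis then slows, while mRNAs with short upstream reading frames, such as that of Atf4, are translated more. ATF4 pairs with C/EBP proteins at composite sites and raises the transcription of genes for amino acid transport and synthesis, tRNA charging and redox defence. CHOP (Ddit3), ATF3, ATF5, TRIB3 and GADD34 (Ppp1r15a) follow, and GADD34 brings back the phosphatase that ends the response. Because the kinases and Atf4 are set largely by phosphorylation and translation, mRNA counts show only the transcript side of the pathway.

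Before the genes are described, 4 properties of the libraries bear on all values. Totals lay between 53688512 and 71364561 counts per library. The labelled kidney tissue held proximal tubule markers at a summed level of 8199 to 17364 counts per 1000000 of the scaled library total (CPM) in every library. Each WT library had Xist at 147 to 422 CPM and no count of Ddx3y, Eif2s3y or Uty, whereas every other library had Ddx3y at 49.7 CPM or more and Xist at 6.06 CPM or less. Sex therefore differs between WT and the 3 other groups, and in every comparison with WT the genotype and the sex cannot be told apart. The libraries also fell into 2 kinds by the share of counts on processed pseudogenes, below 0.0477% in kind A and above it in kind B. Kind A held WT 1, 3, 4 and 5, ATF4 KO 1 and 2, and TRACK-ATF4 KO 1 and 2, and kind B held all the others, including every TRACK library. The extraction notes name 3 to 4 mice per cohort, while WT and ATF4 KO have 5 libraries each. WT 1 with 2, ATF4 KO 2 with 3 and TRACK-ATF4 KO 2 with 3 correlated across kinds at r = 0.986 to 0.988. Other pairs of a group across kinds had r of 0.968 to 0.985, and pairs of the same kind up to 0.995. The study's sequencing summary also lists some sample names again with an added letter, without linking them to these libraries. Some mice may thus have been sequenced more than once, while the main tests and SDs below count each library as a sample of its own. ATF4 KO 4 and 5 stood apart from ATF4 KO 1 to 3. In bulk cortex, fewer cells of a type and less RNA per cell cannot be told apart.

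Promoter sequence was read for the members to show where the composite ATF4 site occurs. RefSeq promoters (GRCm38.p6, 250 bases before to 50 after each RefSeq start) were matched for all 10 members, in 12 windows. The core of the C/EBP-ATF response element, TGATGNAA on either strand, was present in 2 of the 10 members, Atf3 and Trib3, and in 3.97% of all 32851 windows. Among the known targets of the pathway, a list whose genes are partly known for such sites, 16 of 46 matched genes (34.8%) held the core. The cyclic AMP response element TGACGTCA, which ATF and CREB family dimers bind, was found in Ppp1r15a alone among the members and in 1.79% of all windows, and the ER stress response element was found in none of the members and in 0.119% of all windows. The windows below show 11 bases on each side of the match for the members that hold one and, for comparison, for Chac1 and Fgf21, which are targets whose levels are given further on. Each is written 5′ to 3′ on the strand of the gene, with the matched bases in capitals.
Atf3: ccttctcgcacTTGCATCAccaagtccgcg
Trib3: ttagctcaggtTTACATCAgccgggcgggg
Ppp1r15a: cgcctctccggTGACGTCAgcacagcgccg
Chac1: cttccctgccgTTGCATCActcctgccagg
Fgf21: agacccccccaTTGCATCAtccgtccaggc
The Atf3 window is chr1:191183425-191183454 (minus strand), with the match 110 bases upstream of the RefSeq start. That start lies inside the longer span of the counted Atf3 gene, which is given further on. The Trib3 window is chr2:152344028-152344057 (minus strand), with the match 14 bases downstream of the start, and the Ppp1r15a window is chr7:45526262-45526291 (minus strand), with the match 12 bases upstream. Chac1 (chr2:119351038-119351067, plus strand) and Fgf21 (chr7:45615611-45615640, minus strand) held the core 193 and 139 bases upstream. In the windows of Atf4, Atf5, Ddit3 and the 4 kinases none of the 3 motifs was found, which says only that these letters are not in these 300-base stretches.

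**Figure D1:**
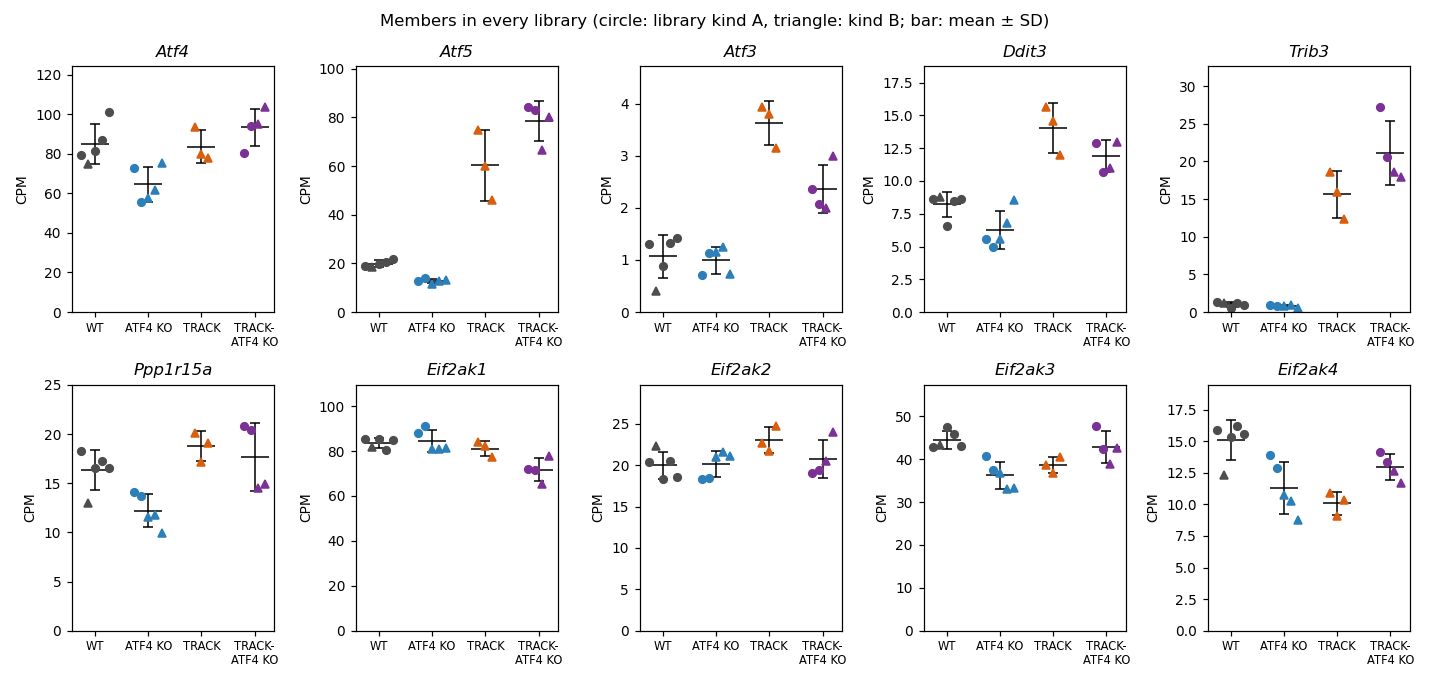
CPM of the 10 members in each of the 17 libraries, with the 4 groups on the x axis. Circles are libraries of kind A, triangles libraries of kind B, and bars the mean ± SD. Trib3, Atf5, Atf3 and Ddit3 lie higher in TRACK than in WT without overlap, and Atf4 lies as high in the libraries labelled TRACK-ATF4 KO as in TRACK.

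Atf4 was the gene targeted by the knockout and was examined first as a check of the labels. Atf4 (ENSMUSG00000042406, chr15:80255184-80257541, plus strand, GRCm38) measured 79.6, 74.8, 81.5, 86.9 and 101.1 CPM in WT 1 to 5. In ATF4 KO 1 to 5 it measured 73, 55.8, 57.4, 61.8 and 75.1 CPM, below WT except that the highest ATF4 KO value passed the lowest WT value. TRACK 1 to 3 had 93.4, 79.9 and 77.6 CPM. The 4 libraries labelled TRACK-ATF4 KO had 80.6, 94.2, 94.9 and 103.7 CPM, a range that starts above the 2 lower TRACK values. Atf4 was thus not lower in the libraries labelled TRACK-ATF4 KO than in TRACK, with a log2 fold change of 0.17 (95% interval -0.07 to 0.41, adjusted p = 0.367, edgeR quasi-likelihood test), which goes against that label. Counts over the whole gene do not separate the floxed exons, and a transcript that has lost them would still be counted. The cortex also holds cells without Cre. No direction for these 4 libraries below rests on proof that Atf4 was deleted in them.

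Measured per exon length, Atf4 was the most abundant member in each group. Its mean in WT was 35.9 ± 4.28 FPKM (SD, n = 5), followed by Eif2ak1 with 14.7 ± 0.417, Atf5 with 10.0 ± 0.657, Eif2ak3 with 7.39 ± 0.345, Ppp1r15a with 5.56 ± 0.680, Ddit3 with 4.8 ± 0.549, Eif2ak2 with 3.92 ± 0.317 and Eif2ak4 with 2.02 ± 0.212 FPKM. Atf3 and Trib3 were the lowest, at 0.495 ± 0.195 and 0.48 ± 0.146 FPKM. The WT ranges of neighbouring genes overlapped between Ppp1r15a and Ddit3, between Ddit3 and Eif2ak2, and between Atf3 and Trib3, and were separate elsewhere in this order. In TRACK, Atf5 moved up to second place with 30.2 ± 7.26 FPKM (n = 3), overlapping Atf4 at 35.5 ± 3.61 FPKM. Trib3 moved from last place in WT to a mean above those of Eif2ak3 and Ppp1r15a in TRACK, at 7.34 ± 1.49 FPKM. In the libraries labelled TRACK-ATF4 KO, Atf4 at 39.6 ± 4.05 and Atf5 at 39.4 ± 4.08 FPKM (n = 4) were at nearly the same level.

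**Figure D2:**
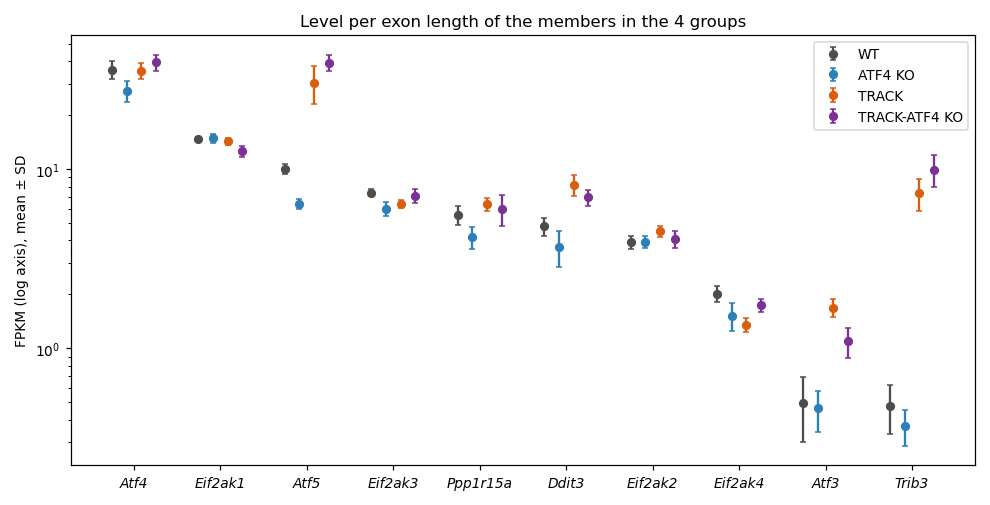
Mean level per exon length (FPKM, log axis) of the 10 members in the 4 groups, with the SD over samples as bars. Genes are ordered by their WT mean, from Atf4 at 35.9 FPKM to Trib3 at 0.48 FPKM, and Trib3 and Atf5 show the widest gaps between the groups with and without TRACK.

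In the comparison of ATF4 KO with WT, which addresses loss of Atf4 in normal kidney, 5 of the 8 members that reached 1 FPKM in either group fell and none rose. Over all 11581 genes tested, 14.1% were called higher and 13.5% lower, where a call is an adjusted p (Benjamini-Hochberg) up to 0.05 in edgeR's quasi-likelihood test. The members' median log2 fold change was -0.37 over all 10, against -0.0005 over all genes tested. The other tool, DESeq2, also called 5 members. Sex and genotype move together here, as given above. The genotype includes the CreER transgene and the floxed alleles, and tamoxifen moves with it if WT was not injected. None of these can be told apart from loss of Atf4.

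Atf4 itself fell by 0.38 on the log2 scale (SE 0.108, 1.3-fold, adjusted p = 0.0218). Without WT 5 or without ATF4 KO 3 the call was lost, with an adjusted p of up to 0.0559. Atf5, a close relative of Atf4 that is also controlled by translation, fell the most among the called members. Atf5 (ENSMUSG00000038539, chr7:44812256-44816658, minus strand) measured 18.9, 18.5, 19.9, 20.7 and 21.7 CPM in WT and 12.7, 13.8, 11.4, 12.6 and 13.3 CPM in ATF4 KO. The groups did not overlap, and the difference was -0.63 (SE 0.0756, 1.55-fold lower, adjusted p = 0.000132). It was called in each of the 10 fits that left out 1 library. Among kind A libraries alone it was -0.60 (adjusted p = 0.00249), and among kind B libraries, with WT 2 as the lone WT sample, it was -0.56 (adjusted p = 0.271).

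Ppp1r15a encodes GADD34, the stress-induced subunit that directs protein phosphatase 1 to eIF2alpha. It (ENSMUSG00000040435, chr7:45522916-45526268, minus strand) measured 18.3, 13, 16.6, 17.2 and 16.5 CPM in WT and 14.1, 13.7, 11.6, 11.7 and 9.97 CPM in ATF4 KO. The lowest WT value, from the 1 WT library of kind B, lay among the ATF4 KO values. The difference was -0.40 (SE 0.117, adjusted p = 0.0233), and it lost its call without WT 1, WT 4 or ATF4 KO 3. Eif2ak3 (PERK, ENSMUSG00000031668, chr6:70844515-70905245, plus strand), the kinase that senses unfolded protein in the endoplasmic reticulum, ranged from 42.8 to 47.5 CPM in WT and from 33 to 40.8 CPM in ATF4 KO, a difference of -0.28 (SE 0.0711, adjusted p = 0.012) without overlap. Eif2ak4 (GCN2, ENSMUSG00000005102, chr2:118388618-118475234, plus strand), the kinase that senses uncharged tRNA when amino acids are short, measured 15.9, 12.3, 15.3, 16.2 and 15.5 CPM in WT and 13.9, 12.9, 10.8, 10.3 and 8.79 CPM in ATF4 KO. Its difference was -0.40 (SE 0.129, adjusted p = 0.0388), and the call was lost when any of 7 of the 10 libraries was left out. Within kind A, Eif2ak3 differed by -0.18 (adjusted p = 0.113) and Eif2ak4 by -0.22 (adjusted p = 0.108), so neither was called there. With ATF4 KO 4 and 5 removed, 3 members were called rather than 5. Ppp1r15a, Eif2ak3 and Eif2ak4 then had adjusted p-values of 0.0799, 0.0551 and 0.129, while Ddit3 passed with -0.60 (adjusted p = 0.00667).

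The 5 other members were not called in ATF4 KO. Ddit3 (ENSMUSG00000025408, chr10:127290774-127296288, plus strand), which encodes the pro-apoptotic factor CHOP, measured 8.64, 8.78, 6.55, 8.49 and 8.64 CPM in WT and 5.54, 4.96, 5.57, 6.8 and 8.58 CPM in ATF4 KO. Its difference of -0.37 had an adjusted p of 0.098, and leaving out ATF4 KO 5, the highest of its group, brought it to 0.0176. Eif2ak1 (HRI, ENSMUSG00000029613, chr5:143817788-143904251, plus strand), the heme-regulated kinase that also relays mitochondrial stress, differed by 0.03 (95% interval -0.10 to 0.16). Eif2ak2 (PKR, ENSMUSG00000024079, chr17:78852564-78882573, minus strand), the kinase activated by double-stranded RNA, differed by 0.02 (95% interval -0.16 to 0.20). Atf3 and Trib3 lay under 1 FPKM in both groups and come from a second fit without that minimum, over 26432 genes, where their differences of -0.10 (adjusted p = 0.887) and -0.37 (adjusted p = 0.491) carried 95% intervals of -0.87 to 0.67 and -1.10 to 0.35.

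**Figure D3:**
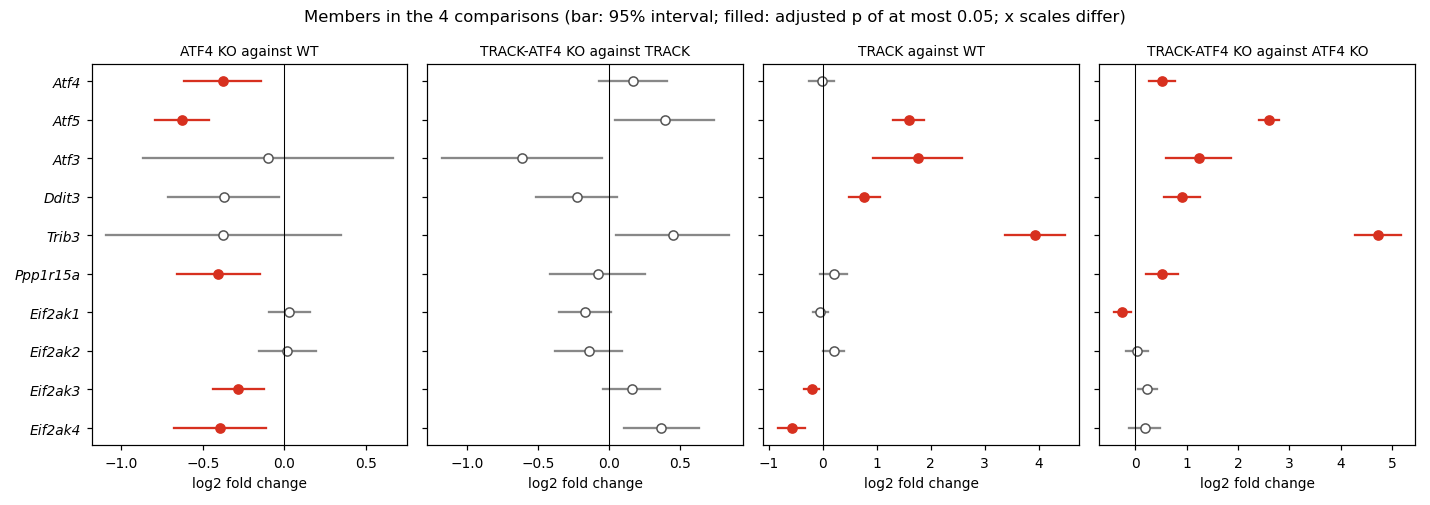
Fitted log2 fold changes of the 10 members in 4 comparisons, 1 panel each with its own x scale, with 95% intervals as bars. Filled points have an adjusted p of at most 0.05, and they number 5, 0, 6 and 7 from left to right.

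In TRACK against WT, Trib3, Atf3, Atf5 and Ddit3 rose, Eif2ak3 and Eif2ak4 fell, and Atf4 was not called. Trib3 and Atf3 passed the FPKM minimum only through TRACK, so they had to differ to be tested. Of the 8 members above the minimum in both groups, 2 were called higher and 2 lower, against 23% and 22.6% of all 11967 genes tested, and DESeq2 called 6 of 10 members as edgeR did. Genotype, sex and, apart from WT 2, library kind move together in this comparison.

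Trib3 encodes a pseudokinase that ATF4 and CHOP induce and that binds both AKT and ATF4. It (ENSMUSG00000032715, chr2:152337422-152344032, minus strand) measured 1.35, 1.15, 0.55, 1.17 and 0.882 CPM in WT and 18.6, 15.9 and 12.3 CPM in TRACK. Each TRACK value was many times the highest WT value, and the fitted change was 3.93 on the log2 scale (SE 0.251, 15.2-fold, adjusted p = 3.1e-06). Against WT 2 alone, the 1 WT library of the same kind, it was 3.77 (adjusted p = 0.00992), a fit in which the lone WT sample is assumed to vary like TRACK. Atf5 measured 74.9, 60 and 45.9 CPM in TRACK, against at most 21.7 CPM in WT, a rise of 1.60 (SE 0.131, 3.03-fold, adjusted p = 1.33e-05). Within kind B its change was 1.70 (adjusted p = 0.0264).

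Atf3 (ENSMUSG00000026628, chr1:191170296-191218039, minus strand), a stress-induced factor that belongs to the immediate early response as well, measured 1.31, 0.411, 0.887, 1.32 and 1.41 CPM in WT and 3.94, 3.8 and 3.16 CPM in TRACK. The groups were separate, with a rise of 1.76 (SE 0.37, 3.4-fold, adjusted p = 0.00357). WT 2 had the lowest value, and within kind B the change was 3.14 (adjusted p = 0.0183), so the choice of WT libraries moved the size by over 1.5 times. The summed level of 13 immediate early genes, which rise with tissue handling, was 219 to 252 CPM in WT and 279 to 349 CPM in TRACK, and its part in the Atf3 result was not tested. Ddit3 measured 15.7, 14.6 and 12 CPM in TRACK, all above the highest WT value of 8.78 CPM, a rise of 0.77 (SE 0.13, 1.71-fold, adjusted p = 0.00104). Within kind B the Ddit3 change was 0.68 and the adjusted p 0.0886. All 4 rises were called in each of the 8 fits that left out 1 library.

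Among the kinases, Eif2ak4 measured 10.9, 9.1 and 10.3 CPM in TRACK, below the whole WT range, and fell by 0.58 (SE 0.114, adjusted p = 0.00267). Within kind B its change was -0.28 (adjusted p = 0.315), a move of over 1.5 times. Eif2ak3, at 36.9 to 40.5 CPM in TRACK, fell by 0.20 (SE 0.0651, adjusted p = 0.0278), a call that was lost in 4 of the 8 fits without 1 library. Atf4 differed by -0.02 (95% interval -0.26 to 0.22), Eif2ak1 by -0.04 (95% interval -0.18 to 0.10), Ppp1r15a by 0.20 (95% interval -0.05 to 0.45) and Eif2ak2 by 0.21 (adjusted p = 0.0755). The rises of Trib3, Atf5 and Ddit3 in TRACK thus came without a called change in the Atf4 transcript.

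The libraries labelled TRACK-ATF4 KO were compared with ATF4 KO to ask the same of TRACK where the labels give an Atf4 deletion in both groups, and here all samples carried Y-linked transcripts. Atf4 goes against the label of 1 of these groups, as described. Trib3, Atf5, Atf3, Ddit3, Ppp1r15a and Atf4 rose and Eif2ak1 fell. Trib3 and Atf3 passed the FPKM minimum only through the libraries labelled TRACK-ATF4 KO, so they had to differ to be tested. Of the 8 members above the FPKM minimum in both groups, 4 were called higher and 1 lower, against 9.39% and 9.79% of all 11816 genes tested. Same-numbered samples of these 2 groups deviated together. Numbers 1 and 2 are kind A and 3 and 4 kind B in both groups, and the part of kind in this was not tested. With the replicate number as a block the same 7 members were called, Trib3 and Atf3 among them, while the count over all genes went from 2266 to 3770.

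Trib3 measured 0.93, 0.824, 0.794, 0.898 and 0.481 CPM in ATF4 KO and 27.2, 20.6, 18.6 and 18 CPM in the libraries labelled TRACK-ATF4 KO. The rise was 4.73 on the log2 scale (SE 0.2, 26.5-fold, adjusted p = 1.54e-07), and it was 4.77 within kind A and 4.64 within kind B, called in both. Atf5 measured 84.3, 83.1, 66.6 and 80 CPM in the libraries labelled TRACK-ATF4 KO, a rise of 2.60 (SE 0.0878, 6.08-fold, adjusted p = 2.92e-08) over ATF4 KO. Within kinds A and B the Atf5 rise was 2.66 and 2.54, called in both. Atf3, at 2.36, 2.07, 2 and 3 CPM against 0.713, 1.14, 1.16, 1.25 and 0.722 CPM, rose by 1.23 (SE 0.287, adjusted p = 0.0138). Ddit3, at 12.9, 10.7, 11 and 13 CPM, rose by 0.91 (SE 0.163, adjusted p = 0.00392) over ATF4 KO without overlap.

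Atf4 rose by 0.52 (SE 0.114, 1.43-fold, adjusted p = 0.0108) between ATF4 KO and the libraries labelled TRACK-ATF4 KO, whose lowest value of 80.6 CPM lay above the highest ATF4 KO value of 75.1 CPM. Ppp1r15a, at 20.9, 20.4, 14.5 and 14.9 CPM, rose by 0.52 (SE 0.144, adjusted p = 0.0304), and its call was lost without ATF4 KO 3, TRACK-ATF4 KO 1 or TRACK-ATF4 KO 2. Eif2ak1, at 72.1, 71.4, 65.5 and 77.8 CPM against 81 to 91.4 CPM in ATF4 KO, fell by 0.25 (SE 0.0762, adjusted p = 0.0408), a call lost in 8 of the 9 fits without 1 library. Where the libraries that may be repeats were summed in both groups, the calls of Atf4, Ppp1r15a and Eif2ak1 were lost (adjusted p = 0.0589, 0.0613 and 0.125) and 4 members stayed called. Within kind B, with 3 ATF4 KO and 2 other samples, Trib3 and Atf5 were the 2 members called, in a fit that called 349 of 11803 genes.

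In the libraries labelled TRACK-ATF4 KO against TRACK, the comparison meant to show loss of Atf4 in the transgenic kidney, edgeR called 0 of the 10 members and DESeq2 also 0, while 4 members had an unadjusted p under 0.05. Over all 11928 genes tested, 2.81% were called higher and 4.28% lower. Those 4 members were Eif2ak4 (0.37, adjusted p = 0.0927), Atf5 (0.39, adjusted p = 0.154), Trib3 (0.45, adjusted p = 0.154) and Atf3 (-0.61, adjusted p = 0.168). Eif2ak4, at 14.1, 13.4, 12.6 and 11.7 CPM, lay above every TRACK value, and Atf3 lay below every TRACK value. The intervals were -1.18 to -0.05 for Atf3, 0.04 to 0.74 for Atf5 and 0.05 to 0.84 for Trib3, wide enough to hold a change of 1.5-fold or more in each. With the replicate number as a block, Trib3 was called at 0.52 (adjusted p = 0.0428), in groups whose numbers did not pair the samples.

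The difference between both ATF4 KO contrasts, which equals the difference between both TRACK contrasts, was tested over all 17 samples. It was called for 4 of the 10 members, all towards a higher value in the libraries labelled TRACK-ATF4 KO than the 3 other groups together would give, against 12.3% of 12208 genes called in this direction and 12.8% in the other. Atf5 had the clearest difference, 1.02 (SE 0.166, adjusted p = 0.000395): it was lower in ATF4 KO than in WT, and not lower in the libraries labelled TRACK-ATF4 KO than in TRACK. Eif2ak4 differed by 0.77 (SE 0.183, adjusted p = 0.00604), Atf4 by 0.55 (SE 0.163, adjusted p = 0.021) and Eif2ak3 by 0.45 (SE 0.11, adjusted p = 0.00726). The Atf4 difference lost its call without TRACK 2 or TRACK 3. Trib3 differed by 0.82 (adjusted p = 0.0789). The WT libraries enter this test, so sex bears on it as well. Within kind B, with WT 2 as the lone WT sample, the median over the 10 members was 0.23, against 0.39 in the full fit.

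Library kind itself moved with 3 members. With the 4 groups as terms, Ppp1r15a was lower in kind B than in kind A by -0.40 on the log2 scale (SE 0.0612, adjusted p = 0.000167), Eif2ak4 by -0.33 (SE 0.0709, adjusted p = 0.00343), and Eif2ak2 was higher by 0.21 (SE 0.054, adjusted p = 0.0116). Of 12208 genes, 10.6% were called higher and 11.1% lower in kind B. Within each of the 3 groups that hold both kinds, the kind B values of Ppp1r15a and Eif2ak4 all lay below the kind A values, and those of Eif2ak2 all lay above. Ppp1r15a, for example, measured 20.9 and 20.4 CPM in the TRACK-ATF4 KO libraries of kind A and 14.5 and 14.9 CPM in those of kind B. Ppp1r15a and Eif2ak4 also had the highest correlation of any of the 45 member pairs within groups (r = 0.87 over 17 samples that share these kinds), and Eif2ak2 with Eif2ak4 the lowest (r = -0.65). Every TRACK library is of kind B, so library kind and TRACK move together, and with kind as a covariate the Eif2ak4 change in TRACK was -0.28 (adjusted p = 0.16), no longer called. Trib3, Atf5, Atf3, Ddit3 and Atf4 had no called kind difference, with log2 differences between -0.21 and 0.20.

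Known targets of the pathway were read as a list of 57 genes in the table, which is described by its counts and median. In TRACK against WT, 45 targets passed the FPKM minimum in both groups, of which 30 rose and 3 fell (23% and 22.6% of all genes tested), with a median of 0.43 over these 45, against -0.01 over all genes. Within kind B, where WT 2 is the lone WT sample, the median over the 54 tested was 0.58. Fgf21, a stress-induced hormone, had 1 count in all WT libraries together and 204 in TRACK, a ratio of 350 with an exact 95% counting interval of 62 to 13873, which covers counting error only. Aldh1l2, the mitochondrial enzyme of folate metabolism, rose from 2.15 ± 0.468 CPM (SD, n = 5) to 113 ± 50.1 CPM (n = 3), a log2 change of 5.72 (SE 0.309, adjusted p = 1.07e-06). Chac1, which degrades glutathione and holds the composite site printed above, went from 0.277 ± 0.211 to 3.28 ± 0.28 CPM (adjusted p = 0.000648). Fgf21 and Chac1, like other targets near the floor in WT, passed the FPKM minimum only through TRACK. They are outside the 45 and had to differ to be tested, and the 54 tested include such targets. Aldh1l2 was also low in WT, so the same limit may hold for it. Among the targets that fell were Mthfd2l (-0.86, adjusted p = 0.000571), Ddit4l (-0.70, adjusted p = 0.000556) and Psph (-0.60, adjusted p = 0.0141), the last of which encodes the final enzyme of serine synthesis.

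In the libraries labelled TRACK-ATF4 KO against ATF4 KO, 44 targets passed the minimum in both groups, of which 13 rose and 2 fell (9.39% and 9.79% of all genes tested), with a median of 0.12 over these 44, against -0.003 over all genes. Aldh1l2 reached 106.7 ± 21.4 CPM from 2.66 ± 1.35 CPM, and Aldh18a1, which makes the precursor of proline, reached 36.9 ± 6.32 from 1.78 ± 0.5 CPM (log2 change 4.35, adjusted p = 7.63e-07). Both were low in ATF4 KO, and targets that passed the minimum only through the other group had to differ to be tested. The 2 that fell were Herpud1 (-0.65, adjusted p = 0.00668), a component of the degradation of misfolded protein at the endoplasmic reticulum, and Cbs (-0.60, adjusted p = 0.0204), which joins homocysteine and serine.

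**Figure D4:**
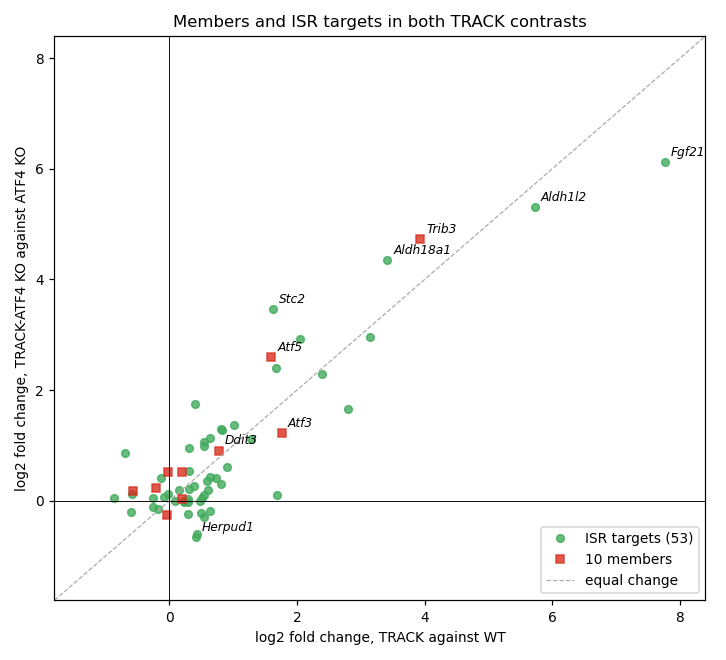
Fitted log2 fold changes of the 10 members (squares) and 53 targets (circles), with TRACK against WT on the x axis and TRACK-ATF4 KO against ATF4 KO on the y axis. The dashed line marks equal change. Trib3, Aldh18a1, Atf5 and Stc2 lie above the line, Aldh1l2 lies slightly below it (5.72 on x and 5.30 on y), and Herpud1 rose on x and fell on y. The fitted values of Fgf21 rest on very few counts in WT and ATF4 KO.

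Where Atf4 was deleted without TRACK, targets moved both ways: of 43 past the minimum in both groups, 9 rose and 9 fell in ATF4 KO against WT, with a median of 0.05. Over all genes tested the shares were 14.1% and 13.5%. Targets that passed the minimum in only 1 group had to differ to be tested and are outside these 43. Within kind B, with WT 2 as the lone WT sample, the median over the 47 tested was 0.05. Slc7a5, a large neutral amino acid transporter, fell from 3.98 ± 0.447 to 1.86 ± 0.379 CPM (-1.09, adjusted p = 0.0011). Phgdh, the first enzyme of serine synthesis, fell from 12.4 ± 1.95 to 5.92 ± 2.69 CPM (-1.05, adjusted p = 0.0149), and Nupr1 fell by 0.89 (adjusted p = 0.00627). Cbs rose from 83.6 ± 3.98 to 182.9 ± 35.1 CPM (1.14, adjusted p = 4.69e-05), and Slc6a9, a glycine transporter, rose by 0.96 (adjusted p = 0.00193). Ddr2, a collagen receptor tyrosine kinase, rose by 0.64 (adjusted p = 0.031).

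Between the libraries labelled TRACK-ATF4 KO and TRACK, 4 of 54 targets were called, 2 in each direction, near the 2.81% and 4.28% of all genes. Herpud1 fell from 407.5 ± 12.7 to 210.2 ± 23.1 CPM (-0.95, adjusted p = 0.000802) and Chac1 fell to 1.47 ± 0.318 CPM (-1.16, adjusted p = 0.0436). Chac1 passed the FPKM minimum only through TRACK, so it had to differ to be tested. Stc2, a secreted glycoprotein of the stress response, rose from 17 ± 1.91 to 34.5 ± 2.15 CPM (1.03, adjusted p = 0.000659), and Ddit4l, a brake on mTORC1 signalling, rose from 8.97 ± 0.63 to 20.4 ± 1.39 CPM (1.20, adjusted p = 0.000355). The difference between both ATF4 KO contrasts was called for 16 of 54 targets, 8 in each direction, near the 12.3% and 12.8% of all genes. It was widest for Stc2 (1.86), Ddit4l (1.57) and Phgdh (1.36) upward, and for Slc6a9 (-1.56), Herpud1 (-1.05) and Cbs (-1.02) downward. Within kind B, with WT 2 as the lone WT sample, the median over the 54 targets was -0.03, against -0.10 in the full fit.

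The machinery around the kinases was read as a list of its own. Of 18 genes for eIF2, eIF2B, phosphatase and sensor subunits, 3 rose and 1 fell in ATF4 KO against WT, 6 rose and 3 fell in TRACK against WT, and 1 fell in the libraries labelled TRACK-ATF4 KO against ATF4 KO. These are few genes beside a background of 14.1% higher and 13.5% lower in the first comparison, 23% and 22.6% in the second and 9.39% and 9.79% in the third, so the counts are no result about the list. The TRACK count also depended on the fit: 1 rose and 0 fell with library kind as a covariate, 0 rose and 2 fell with the replicate block, and 2 rose and 3 fell with all genes that had a count. Within kind B, with WT 2 as the lone WT sample, the median over the 18 was 0.06 in TRACK and 0.003 in ATF4 KO, each against WT. Against TRACK, edgeR called 0 of these 18, with 6 at an unadjusted p under 0.05 and 1 called by DESeq2. Gcn1, the activator of GCN2, rose by 0.37 in ATF4 KO (adjusted p = 0.00294) and by 0.31 in TRACK (adjusted p = 0.022), in both of which Eif2ak4 itself fell. Eif2s1, which encodes eIF2alpha, rose by 0.32 in ATF4 KO (adjusted p = 0.0095), and Ppp1r15b, the constitutive partner of Ppp1r15a, rose by 0.19 (adjusted p = 0.0328). Eif2s3x, the X-linked gene for eIF2gamma, fell by 0.62 in ATF4 KO and by 0.76 in TRACK (adjusted p = 0.00944 and 0.00307), and WT is the group without Y-linked transcripts. Ppp1cc fell by 0.92, Oma1, the mitochondrial protease that activates HRI signalling, by 0.34, and Eif2a and Ppp1cb rose by 0.33 and 0.26 in TRACK.

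Of 14 dimer partners of ATF4 in the table, 12 were tested in each comparison. In ATF4 KO, 2 fell and none rose, against 13.5% of all genes lower: Cebpd, a C/EBP factor of acute responses, went from 21.7 ± 6.95 to 5.47 ± 1.94 CPM (-1.97, adjusted p = 0.000304), and Nfe2l1 fell by 0.61 (adjusted p = 0.000192). In TRACK 4 partners rose and 3 fell, against 23% and 22.6% of all genes. With kind as a covariate or with the block 3 rose and 1 fell, in fits that called 2776 and 3431 of 11967 genes. Cebpb, the classical partner of ATF4 at composite sites, rose from 6.75 ± 1.3 to 17.5 ± 0.604 CPM (1.37, adjusted p = 0.000113), Fosl2 by 0.96 and Jun by 0.85, while Maf fell by 0.65, Jund by 0.36 and Nfe2l1 by 0.26. In the libraries labelled TRACK-ATF4 KO, 4 partners rose over ATF4 KO and none fell, against 9.39% of all genes higher. Among them were Cebpd at 1.11, Fosl2 at 1.01 and Jun at 0.27. Within kind B edgeR called 0 partners, with 3 at an unadjusted p under 0.05, beside 349 of 11803 genes called. Against TRACK, Maf rose by 0.48 (adjusted p = 0.0394) and Jun fell by 0.50 (adjusted p = 0.0142).

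Marker lists of other cells and of the TRACK transgene were read beside these results. Over all genes tested, 14.1% were called higher and 13.5% lower in ATF4 KO against WT, and 23% and 22.6% in TRACK against WT. In the libraries labelled TRACK-ATF4 KO against ATF4 KO the shares were 9.39% and 9.79%. Of 11 HIF target genes past the minimum in both groups, 8 rose and 1 fell in TRACK, and 10 of 11 rose in the libraries labelled TRACK-ATF4 KO over ATF4 KO. Egln3, one of them, went from 15.8 ± 0.932 CPM in WT to 162.9 ± 48.8 CPM in TRACK. HIF targets summed to 3401 to 4346.5 CPM in WT, 2471 to 4737 in ATF4 KO and 4045 to 4892 in TRACK. The sum was 6427 to 7332 CPM in the libraries labelled TRACK-ATF4 KO. There, 3 of 12 rose and 0 fell against TRACK, beside 2.81% and 4.28% of all genes. All 5 endothelial markers rose in both TRACK contrasts, with summed levels of 244 to 278 CPM in WT, 263 to 304 in ATF4 KO, 423 to 495 in TRACK and 360 to 400 in the libraries labelled TRACK-ATF4 KO. The summed proximal tubule markers ran from 11330 to 13276 CPM in WT, 13481 to 17364 in ATF4 KO, 8199 to 9811 in TRACK and 8321 to 9494 in the libraries labelled TRACK-ATF4 KO. Of these 10 markers, 3 rose and 0 fell in ATF4 KO against WT, and 1 rose and 5 fell in TRACK against WT. In the libraries labelled TRACK-ATF4 KO against ATF4 KO, 0 rose and 6 fell. Collecting duct markers summed to 962 to 1137 CPM in WT, 443 to 682 in ATF4 KO, 557 to 617 in TRACK and 390 to 601 in the libraries labelled TRACK-ATF4 KO, and 5 of 6 fell in ATF4 KO and 6 of 6 in TRACK. Loop of Henle and distal tubule markers summed to 6285 to 8587, 4134 to 5173, 3979 to 6677 and 4864 to 5288 CPM in the same order, and 4 of 6 fell in ATF4 KO and 5 of 6 in TRACK. Fibroblast and mural markers summed to 107 to 120 CPM in WT, 117 to 213 in ATF4 KO, 170 to 323 in TRACK and 135 to 185 in the libraries labelled TRACK-ATF4 KO, and 5 of 6 rose in ATF4 KO and 4 of 6 in TRACK. Immune cell markers summed to 102 to 118 CPM in WT, 70.5 to 123 in ATF4 KO, 109 to 111 in TRACK and 91.7 to 119 in the libraries labelled TRACK-ATF4 KO. Adipocyte markers were at 28.3 and 26.9 CPM in ATF4 KO 2 and 3, at 78.6 CPM in TRACK 1 and at 7.44 CPM or less in every other library. The part of these cells in the members' changes was not tested. Ddit3 overlaps Mars1 on the opposite strand, Atf5 overlaps Nup62 and Eif2ak1 overlaps Aimp2. Libraries were prepared with a stranded kit but the strand setting of the counting is not given, so reads of the partners may not have been told apart. Mars1 was at 32.8 ± 2.13 CPM in WT and 49.7 ± 4.8 CPM in TRACK, above the Ddit3 means of 8.22 and 14.1 CPM. It was itself called higher in TRACK by edgeR (0.60, adjusted p = 0.000299), and its part in the Ddit3 rise was not tested. Nup62 was at 13 ± 1.17 and 12.4 ± 0.376 CPM, under the level of Atf5 in both.

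Within groups, the genes whose log2 CPM followed Atf4 most closely over the 17 samples were Nlrp10 (r = 0.81), Hspa1a (r = 0.79), Mex3d (r = 0.79), Tapt1 (r = 0.78) and Sirt1 (r = 0.77), out of 12207 genes. These are the highest of many values and are given as a description. Among the members, Atf4 went most with Ddit3 (r = 0.41) and Atf5 (r = 0.38) and least with Trib3 (r = -0.26), so r with Atf4 did not pass 0.41 for any member.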

How the data were processed

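Kidney cortex RNA of 17 samples was sequenced with a stranded mRNA kit. Per the labels and the study's methods, the authors converted reads with bcl2fastq 2.20, removed adapters (Cutadapt), mapped to GRCm38 (STAR) and obtained gene counts from HTSeq. The values the authors deposited are raw read counts without normalization. The annotation release and the strand setting are not given in the sources used here.

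The main test was edgeR's (4.0.16, R 4.3.3) quasi-likelihood test with TMM scaling, and DESeq2 1.42.0 was an alternative. FPKM was computed from counts and merged exon lengths of GENCODE M21, which covered 48435 of 48795 genes, and 663 had no name. Genes with a mean of at least 1 FPKM in either group were tested, and members below it come from a second fit that drops this minimum. A change was called where the adjusted p (Benjamini-Hochberg) was 0.05 or less. CPM values are counts per 1000000 of the library total multiplied by its TMM factor, taken over all 17 samples. Printed FPKM values are scaled in the same way, while the FPKM minimum was applied without this factor. Each pair of groups was fitted on its own, and the difference between contrasts over all 17 samples. Intervals are at 95%. The fits were tested on simulated data.

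The members and lists were chosen with earlier results of these data known. Of 184 list genes, 181 were in the table. The text names all members, up to 3 called genes each way per pathway list and comparison, and the 5 genes most like Atf4. Further alternatives, library kinds among them, were added after the data were seen. Same-numbered samples deviated together between ATF4 KO and TRACK-ATF4 KO (r = 0.41, 0.54, 0.52 and 0.38), where numbers 1 and 2 are kind A and 3 and 4 kind B in both groups. In the other comparisons r was between -0.59 and 0.05. P-values measure the spread between these samples, some of which may be repeat libraries of 1 mouse.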

Additional observations from a re-analysis of the deposited data

Results flagged for a closer look

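Differences between both ATF4 KO contrasts (the libraries labelled TRACK-ATF4 KO less TRACK, against ATF4 KO less WT) passed the interaction test for 4 members, with log2 values of 0.55 for Atf4, 1.02 for Atf5, 0.45 for Eif2ak3 and 0.77 for Eif2ak4. WT differs from the other groups in sex, which cannot be told apart from the genotype in this test. Library kind is unbalanced, with 1 of 5 WT libraries but every TRACK library of kind B. With kind as a covariate the values were 0.56, 0.90, 0.32 and 0.48, all still called.

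A single sample stood far from its group in 2 of the 30 sets of member values tested, a rate that chance alone would give in about 1 of 20 sets. WT 3 had Ddit3 at 6.55 CPM, below the 8.49 to 8.78 CPM of the other WT samples. WT 2, the WT library of kind B, had Eif2ak4 at 12.3 CPM, below the 15.3 to 16.2 CPM of the others.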

How the results depend on the processing

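The counts of genes and members called and each member's fold change were recomputed with DESeq2, another scaling, other filters, 1 fit of all samples, the replicate number as a block, library kind as a covariate or within kinds, possible repeats summed, without ATF4 KO 4 and 5, and without each sample in turn. The gene lists were recomputed in the same way, apart from leaving out each sample, and the differences between kinds, the correlations and the genes named from lists were not recomputed. No called member reversed its direction. Leaving out each sample in turn aside, 9 member values gained and 38 lost a call, and 463 kept their side of the threshold. For ATF4 KO against WT, 3198 genes and 5 members were called. The block gave 2106 genes and 2 members, kind B alone 98 genes and 0 members (1 at an unadjusted p under 0.05), and the fit without ATF4 KO 4 and 5 gave 3 members. Leaving out 1 sample gave 2477 to 3246 genes and 2 to 5 members. For the libraries labelled TRACK-ATF4 KO against TRACK, 846 genes and 0 members became 1562 genes with DESeq2, 462 with kind as a covariate, 498 with repeats summed and 221 within kind B, and the block called 1 member. Leaving out 1 sample gave 379 to 1424 genes and 0 members each time. For TRACK against WT, 5458 genes and 6 members became 3431 genes with the block, 2776 with kind as a covariate and, within kind B, 1475 genes and 3 members. Leaving out 1 sample gave 4101 to 6041 genes and 5 to 7 members. For the libraries labelled TRACK-ATF4 KO against ATF4 KO, 2266 genes and 7 members became 3770 genes with the block, 1168 genes and 4 members with repeats summed in both groups, and 349 genes and 2 members within kind B. Leaving out 1 sample gave 1427 (without TRACK-ATF4 KO 2) to 2336 genes and 5 to 7 members. For the difference between contrasts, 3070 genes and 4 members became 452 genes and 0 members within kind B, and leaving out 1 sample gave 2205 to 3303 genes and 3 to 5 members. Fits within a kind hold fewer samples. The cause of the other moves was not tested. Kind A alone was not run where TRACK enters, since TRACK has no such library. With the block, Ppp1r15a, Eif2ak3 and Eif2ak4 lost their calls in ATF4 KO against WT, Eif2ak3 lost its call in TRACK against WT (adjusted p = 0.108), and Trib3 passed in the difference between contrasts (adjusted p = 0.0279). The number is the only link known here between samples of different groups. Between ATF4 KO and TRACK-ATF4 KO, same-numbered samples also share the library kind. Atf3 and Trib3, at about 1 CPM in WT and ATF4 KO, are the members whose counts limit precision most.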
